A study of Mus musculus with 8 samples.

Results

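Transcripts of 9 genes of the bone morphogenetic protein (BMP) system were followed in fibroadipogenic progenitors, mesenchymal cells between the fibres of skeletal muscle that can form fat and scar tissue. The genes were taken by symbol from a count table of 24419 rows. They are 6 ligands (Gdf10, Bmp2, Bmp4, Bmp5, Bmp6 and Bmp7), 2 secreted antagonists (Grem1 and Chrdl1) and 1 receptor (Bmpr1a). All 9 were in the table and all 9 passed the filter on low counts, Grem1 only through the scrambled libraries. The cells came from hindlimb muscles of male mice (C57BL/6J), whose ages the labels do not give, and were sorted as SCA-1 positive cells lacking CD31, CD45 and α7-integrin. In the knockdown group (n = 3) KPCY cells, a mouse pancreatic cancer line, had been transduced with a lentiviral vector that inhibits miR-27a-3p and implanted into the pancreas. In the scrambled group (n = 3) the implanted KPCY cells carried a scrambled sequence in a lentiviral vector. In the sham group (n = 2) mice had sham surgery. Both tumour lines were puromycin-selected stable lines, and the inhibitor was in the tumour cells, not in the sorted progenitors. Tumour, vector and cell injection cannot be told apart in a comparison with sham.

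BMPs are secreted dimers that bring type I receptors, among them BMPR1A, together with type II receptors. The receptors phosphorylate SMAD1, SMAD5 and SMAD9, which enter the nucleus with SMAD4 and switch on genes such as the Id family. Gremlins, chordins and chordin-like proteins bind the ligands outside the cell and keep them from their receptors. In mouse muscle BMP signalling is known to counter wasting, and Gdf10, also called Bmp3b, is known as a product of the mesenchymal progenitors that takes part in keeping up muscle mass.

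Total counts ran from 15647436 to 28340450 per library. The 6 progenitor markers examined, among them Pdgfra, Dcn and Gsn, summed to between 69128 and 84163 CPM (read counts scaled to a common library size, with TMM factors) in knockdown, 74851 and 103340 in scrambled and 74097 and 86399 in sham libraries. Genes that define adipocytes and bone cells were near or at 0, with Lep, Bglap and Ibsp at 0 reads in every library. Markers of other cells were present. Tenocyte markers summed to between 625 and 1257 CPM in knockdown, 657 and 801 in scrambled and 664 and 1036 in sham libraries. Thbs4 made up most of this sum, with means of 587 CPM in knockdown, 616 in scrambled and 619 in sham libraries. Fmod made up most of the rest. The other tenocyte markers were low. Scx averaged 0.613, 0.343 and 1.35 CPM and Mkx 1.74, 1.86 and 0.904 CPM in the same order. Tnmd lay below Fmod in every library. Schwann cell markers summed to between 38.5 and 44.2 CPM in knockdown, 28.3 and 36.8 in scrambled and 20.7 and 24.0 in sham libraries. The scrambled libraries were uneven. The first principal component held 61.1% of the variance, and on it scrambled libraries 1 and 3 stood at 115.5 and 92.0. Scrambled library 2 stood at -12.3, nearer to the knockdown and sham libraries, which lay between -47.7 and -32.3. The progenitor markers differed in this. Pdgfra was even, with 1477, 1449 and 1467 CPM in knockdown libraries 1 to 3, 1576, 1586 and 1519 CPM in scrambled libraries 1 to 3, and 1256 and 1588 CPM in sham libraries 1 and 2. Dcn was highest in the scrambled libraries, library 2 included, and Gsn made up most of the sum. Cd34, a progenitor surface marker, split the scrambled group, with 1914, 1925 and 1805 CPM in knockdown libraries 1 to 3, 213, 1179 and 241 CPM in scrambled libraries 1 to 3, and 2250 and 2156 CPM in sham libraries 1 and 2. Ly6a split it too, with 1110, 1175 and 1033 CPM in knockdown, 451, 1136 and 436 in scrambled and 951 and 933 in sham libraries. Dpt had 2206, 2361 and 2266 CPM in knockdown, 1293, 1934 and 609 in scrambled and 2530 and 2246 in sham libraries. Values of the members that rest on the scrambled group are therefore also given without its library 2. That library was singled out in these same data, so calls made without it are no separate support for a difference.

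Across all 13646 genes tested by edgeR's quasi-likelihood test, no BMP member passed an adjusted p of 0.05 in any of the 3 comparisons. For scrambled against sham, 0 of 9 members were called where 1.58% of all genes were. At an unadjusted p under 0.05, 3 members were higher and 3 lower, against 16.7% and 12.5% of all genes (29.2% together). Groups did not overlap for 3 higher and 3 lower members, against 20.2% and 20.8% of all genes. Both counts of higher members hold Grem1, which passed the filter only because it was high in the scrambled libraries, so its direction was fixed.

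For knockdown against scrambled, 0 of 9 members were called (0.0513% of all genes). At an unadjusted p under 0.05, 5 were higher and 1 lower, against 13.9% and 18.5% of all genes (32.4% together). Groups did not overlap for 5 higher and 2 lower members, against 17.5% and 16.7%, and Grem1 is among the lower ones by the same filter. For knockdown against sham, 0 of 9 were called (0.00733% of all genes). At an unadjusted p under 0.05, 3 were higher and 0 lower, against 1.67% and 0.696% (2.37% together), and 3 higher and 1 lower did not overlap, against 13.8% and 13.5%.

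Other fits gave other counts of calls. DESeq2 called Bmp4 and Chrdl1 higher and Bmp6 and Bmp7 lower in scrambled than in sham, where it called 9.68% of all genes higher and 5.52% lower (15.2% together). In knockdown against scrambled it called Bmp2, Bmp5, Bmp6 and Bmp7 higher and Bmp4 lower, where 5.80% of all genes were higher and 11.2% lower (17.0% together). It called no member between knockdown and sham (0.183% of all genes). With limma-voom 0 members were called, against 1.11%, 0.0366% and 0.00733% of all genes in the same 3 comparisons, and the fit with a replicate block called 0, against 0.117%, 0% and 0%. Without a filter on low counts edgeR called Bmp4 higher in scrambled than in sham, where 1.07% of all genes were called higher.

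Without scrambled library 2, edgeR called 6 of the 8 members still tested for scrambled against sham, where 51.0% of all genes were called, and 5 of 8 for knockdown against scrambled, where 54.0% were. The differences below are therefore given as measured values that did not pass edgeR's test over all libraries. Each group serves in more than 1 comparison, so the comparisons' values are set side by side and not counted as independent.

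**Figure D1:**
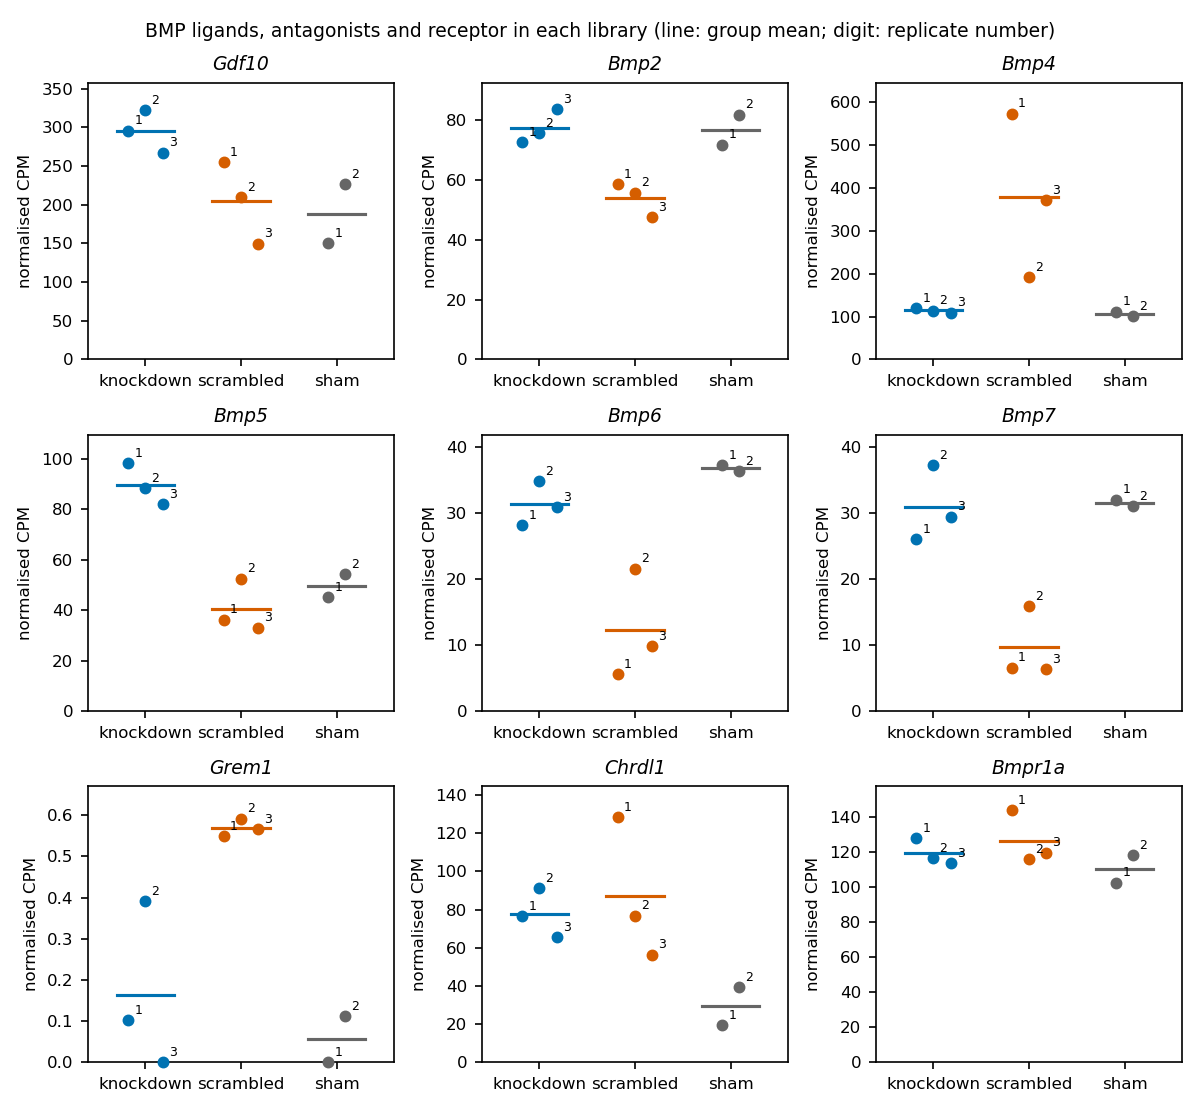
Normalised CPM (vertical axes, from 0) of each BMP gene in knockdown, scrambled and sham libraries. Each point is 1 library with its replicate number and each line is a group mean. Bmp4 stood between 192 and 574 CPM in scrambled libraries and between 102 and 120 CPM in all others, while Bmp6 and Bmp7 were lowest in the scrambled libraries.

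Bmp4, which encodes a ligand that acts through BMPR1A, had the largest fitted log2 difference of the 6 ligands, both for scrambled against sham and for knockdown against scrambled. It had 574, 192 and 373 CPM in scrambled libraries 1 to 3, against 112 and 102 CPM in sham libraries 1 and 2. Every scrambled library lay above both sham libraries, and library 2 was the lowest of them. The fitted fold was 3.56 (log2 1.83 ± 0.39 SE, higher in 3 of 3 scrambled libraries, edgeR adjusted p = 0.0546, from 5.86e-06 to 0.4 over 14 alternatives). The knockdown libraries 1 to 3 had 120, 114 and 109 CPM. They did not overlap with the scrambled libraries (log2 -1.73 ± 0.33, edgeR adjusted p = 0.061, from 2.7e-06 to 0.236 over alternatives). Against sham the difference was log2 0.10 ± 0.37, with overlapping values. Without scrambled library 2 the log2 change was 2.16 for scrambled against sham and -2.06 for knockdown against scrambled, both called by edgeR (adjusted p = 5.86e-06 and 2.7e-06). That fit called 51.0% and 54.0% of all genes in these comparisons. Bmp4 lies on chromosome 14 from 46383520 to 46390669 on the - strand (mm10), and 89 of its 2248 exonic bases are shared with Gm15217, which had 0 reads in every library.

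The promoter windows of 4 ligands are shown because the values of these ligands lay on different sides of one another across the groups. Each is the 250 bases before the RefSeq start (RefSeq, GRCm38.p6, the build of mm10), read 5′ to 3′ on the gene's strand, with matches to the searched motifs in capitals. The windows are Bmp4 (chr14:46390670-46390919, - strand), Bmp6 (chr13:38345466-38345715, + strand), Bmp5 (chr9:75775115-75775364, + strand) and Gdf10 (chr14:33923337-33923586, + strand).
Bmp4: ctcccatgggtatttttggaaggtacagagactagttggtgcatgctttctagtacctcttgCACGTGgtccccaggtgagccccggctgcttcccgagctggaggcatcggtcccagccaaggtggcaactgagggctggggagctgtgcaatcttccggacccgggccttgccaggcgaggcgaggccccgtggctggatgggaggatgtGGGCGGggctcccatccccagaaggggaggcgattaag
Bmp6: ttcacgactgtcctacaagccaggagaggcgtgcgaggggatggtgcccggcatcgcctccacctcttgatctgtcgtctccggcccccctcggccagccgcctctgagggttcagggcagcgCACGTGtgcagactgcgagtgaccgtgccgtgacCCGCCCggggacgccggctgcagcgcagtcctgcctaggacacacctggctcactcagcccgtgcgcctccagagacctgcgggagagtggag
Bmp5: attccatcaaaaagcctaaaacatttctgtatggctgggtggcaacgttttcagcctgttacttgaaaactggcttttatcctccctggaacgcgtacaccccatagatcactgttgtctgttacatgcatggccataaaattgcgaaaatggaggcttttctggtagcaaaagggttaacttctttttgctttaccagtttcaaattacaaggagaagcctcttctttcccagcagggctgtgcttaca
Gdf10: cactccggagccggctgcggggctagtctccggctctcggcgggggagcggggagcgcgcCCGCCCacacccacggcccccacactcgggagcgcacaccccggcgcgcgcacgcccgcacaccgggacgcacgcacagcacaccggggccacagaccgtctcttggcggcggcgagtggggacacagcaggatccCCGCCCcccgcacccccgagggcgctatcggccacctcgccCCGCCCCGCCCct

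The motifs were searched on both strands as exact letters in the 32851 windows of the same 250 bases in the RefSeq table. Bmp4 and Bmp6 each held 1 E-box (CACGTG, in 6.02% of windows) and 1 SP1 motif (GGGCGG, in 32.7%). Gdf10 held 4 SP1 motifs, of which the last pair overlap by 1 base, and Bmp5 held no match. None of the 4 windows held the letters TTCNNNGAA searched for STAT factors, which 7.02% of all windows held. The C/EBP letters TTGCNNCAA (in 1.74% of all windows) were absent from them too. So were the AP-1 letters TGANTCA (6.75% of all windows) and the TATA box letters TATAAA (12.4% of all windows). Nor did they hold the SMAD letters (GGCGCC, 9.59%, and GTCTAGAC, 0.167%), or those searched for NF-kappa-B (1.41%) and the glucocorticoid receptor (0.00913%). The GC content was 63.2% for Bmp4, 68.8% for Bmp6, 42.8% for Bmp5 and 78.8% for Gdf10, against a median of 52.4% over all windows. Observed over expected CpG was 0.451, 0.745, 0.351 and 0.928 in the same order, with a median of 0.373. Windows were found for 6 of the 9 genes. The Bmp6 window, set by the RefSeq start, lies within the GENCODE M21 span of the gene, which begins at 38345107. The Bmp4 window lies outside the span of Bmp4, so these windows are not like regions. Bmp4 and Bmp6 lay on opposite sides of sham in the scrambled group, and the part of the motifs was not tested.

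Bmp7 and Bmp6, ligands that with Bmp5 make up a close subfamily of BMPs, stood lower in scrambled than in sham libraries. Bmp7 had 6.58, 15.9 and 6.36 CPM in scrambled libraries 1 to 3, against 32.1 and 31.0 CPM in sham libraries 1 and 2. All 3 scrambled libraries lay below both sham libraries, with library 2 between the rest. The log2 change was -1.70 ± 0.37 (edgeR adjusted p = 0.0576, from 1.11e-05 to 0.399 over alternatives). Knockdown libraries 1 to 3 had 26.1, 37.3 and 29.5 CPM, above every scrambled library (log2 1.67 ± 0.35, edgeR adjusted p = 0.0685, from 7.02e-06 to 0.236) and overlapping with sham (log2 -0.03 ± 0.37). Bmp7 lies on chromosome 2 from 172868012 to 172940321 on the - strand.

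Bmp6 had 5.52, 21.6 and 9.82 CPM in scrambled libraries 1 to 3, against 37.2 and 36.4 CPM in sham libraries 1 and 2. The groups did not overlap, and library 2 was again the nearest to sham (log2 -1.58 ± 0.44, edgeR adjusted p = 0.0824, from 1.77e-05 to 0.416 over alternatives). The knockdown libraries 1 to 3 had 28.2, 34.8 and 30.9 CPM. These were above all scrambled libraries (log2 1.34 ± 0.40, edgeR adjusted p = 0.0831, from 2.3e-05 to 0.24) and slightly below both sham libraries (log2 -0.23 ± 0.43). Without scrambled library 2 the log2 changes for scrambled against sham were -2.31 for Bmp6 and -2.27 for Bmp7, and for knockdown against scrambled 2.07 and 2.24, all 4 called by edgeR. That fit called 51.0% and 54.0% of all genes in these comparisons. Among the members, Bmp6 and Bmp7 were each other's nearest in pattern, with a root mean square difference of 0.26 log2 units over the 8 libraries after centring. Bmp2 and Bmpr1a (0.34) and Bmp4 and Grem1 (0.79) were each other's nearest as well.

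Bmp6 lies on chromosome 13 from 38345107 to 38500302 on the + strand, and 224 of its 3900 exonic bases are also exonic in Txndc5, a disulphide isomerase gene on the other strand. Txndc5 had more reads than Bmp6 in every library. It had 126, 314 and 130 CPM in scrambled libraries 1 to 3, against 417 and 327 CPM in sham libraries 1 and 2, an order like that of Bmp6. The libraries were made with a stranded kit, but the strand used in counting is not given in the sources used here, so the part of Bmp6 reads that could come from Txndc5 is unknown. There were 8.08, 9.24 and 8.84 Bmp6 reads per 100 Txndc5 reads in knockdown libraries 1 to 3, 4.40, 6.86 and 7.55 in scrambled libraries 1 to 3, and 8.91 and 11.1 in sham libraries 1 and 2, with the scrambled libraries lowest. The part of Txndc5 in the Bmp6 difference was not tested.

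Bmp2, the closest relative of Bmp4, was lower in the scrambled group by a small and even amount. It had 58.6, 55.8 and 47.6 CPM in scrambled libraries 1 to 3, against 71.9 and 81.9 CPM in sham libraries 1 and 2. The groups did not overlap, and unlike Bmp4, Bmp6 and Bmp7, scrambled library 2 lay in the middle of its group. The log2 change was -0.51 ± 0.17 (edgeR adjusted p = 0.106, from 0.014 to 0.416 over alternatives). It was called when scrambled library 2 was left out (log2 -0.52, edgeR adjusted p = 0.014), as were 51.0% of all genes. Knockdown libraries 1 to 3 had 72.8, 75.7 and 83.8 CPM, above the scrambled libraries (log2 0.52 ± 0.15, edgeR adjusted p = 0.0789, from 0.00746 to 0.236) and overlapping with sham (log2 0.01 ± 0.17). The difference from scrambled was called too when scrambled library 2 was left out (log2 0.53, edgeR adjusted p = 0.00746), as were 54.0% of all genes. Bmp2 lies on chromosome 2 from 133552159 to 133562885 on the + strand.

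Bmp5 was highest in the knockdown group. It had 98.4, 88.6 and 82.2 CPM in knockdown libraries 1 to 3, 36.3, 52.6 and 33.1 CPM in scrambled libraries 1 to 3, and 45.1 and 54.4 CPM in sham libraries 1 and 2. No knockdown library overlapped with any other library, and scrambled and sham libraries overlapped (log2 -0.29 ± 0.22, edgeR adjusted p = 0.384, from 0.0182 to 0.782 over alternatives). Without scrambled library 2, which was the highest of its group, Bmp5 was called lower in scrambled than in sham (log2 -0.51, edgeR adjusted p = 0.0182). Knockdown against scrambled was then called as well (log2 1.4, edgeR adjusted p = 1.88e-05). That fit called 51.0% of all genes for scrambled against sham and 54.0% for knockdown against scrambled. Over all libraries, the fold was 2.2 for knockdown against scrambled (log2 1.14 ± 0.20, higher in 3 of 3 knockdown libraries, edgeR adjusted p = 0.061, from 1.88e-05 to 0.236 over alternatives). It was 1.80 for knockdown against sham (log2 0.85 ± 0.23, unadjusted p = 0.00476, edgeR adjusted p = 1). In a fit of the knockdown and sham libraries alone, and without scrambled library 2, Bmp5 was called higher than in sham by edgeR (log2 0.85 in both, adjusted p = 0.0165 and 0.0435, from 0.0165 to 1 over alternatives), where 0.765% and 0.236% of all genes were called. Bmp5 lies on chromosome 9 from 75775364 to 75900310 on the + strand. Of its 4025 exonic bases 1878 are shared with Gm26903, an antisense gene not listed in the table used here, so reads of the pair cannot be told apart unless strand was counted.

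Gdf10 had 296, 322 and 267 CPM in knockdown libraries 1 to 3, 255, 210 and 150 CPM in scrambled libraries 1 to 3, and 150 and 226 CPM in sham libraries 1 and 2. The knockdown libraries lay above all others by a narrow margin, and the scrambled and sham ranges were nearly the same. The log2 change was 0.53 ± 0.23 for knockdown against scrambled (edgeR adjusted p = 0.154, from 0.0766 to 0.38 over alternatives) and 0.65 ± 0.26 for knockdown against sham (unadjusted p = 0.0364, edgeR adjusted p = 1, from 0.158 to 1). For scrambled against sham it was 0.12 ± 0.26, and it took the other sign, at -0.14, without sham library 1 and at -0.06 without scrambled library 1. Leaving out scrambled library 2 gave 0.53 for knockdown against scrambled and 0.11 for scrambled against sham. No difference in Gdf10 was called under any of the 14 alternatives. Gdf10 lies on chromosome 14 from 33923587 to 33937983 on the + strand.

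The genes whose centred log2 CPM lay closest to Gdf10 over the 8 libraries, among 9975 candidates, were Abcb1a (root mean square difference 0.11 log2 units), Vegfc (0.16), Fpgt (0.18), Chm (0.19) and Atp2a3 (0.20), against a median of 0.52 over the candidates. Abcb1a, a drug efflux pump, had 12.2, 11.9 and 10.5 CPM in knockdown, 10.7, 7.48 and 6.17 CPM in scrambled and 5.31 and 7.53 CPM in sham libraries. This is a description of these 8 libraries, and within each library all genes share its depth and composition.

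**Figure D2:**
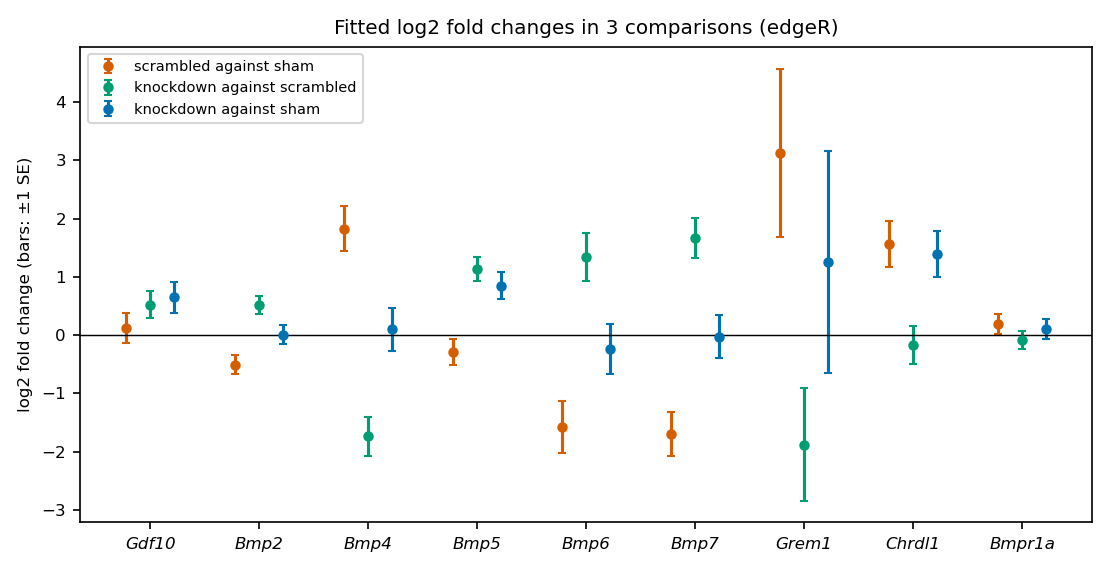
Fitted log2 fold changes (vertical axis, bars ±1 SE, edgeR) of each BMP gene, with scrambled over sham, knockdown over scrambled and knockdown over sham. Bmp4 stood at 1.83 and -1.73 in the first 2 comparisons, Bmp7 at -1.70 and 1.67 and Bmp6 at -1.58 and 1.34, while the third comparison lay near 0 for these genes and at 0.85 for Bmp5 and 1.40 for Chrdl1. Grem1 rests on at most 14 reads per library, and its points are no measure of its fold.

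The levels of the 6 ligands were compared with each other per kb of the longest coding GENCODE M21 transcript. In knockdown libraries Gdf10 averaged 56.7 ± 5.27 CPM per kb (SD, n = 3) and Bmp4 55.4 ± 2.58, with overlapping values, followed by Bmp5 at 23.5 ± 2.14 and Bmp2 at 21.8 ± 1.61, which also overlapped, and by Bmp6 at 8.71 ± 0.931 and Bmp7 at 8.43 ± 1.57, which overlapped too. In scrambled libraries Bmp4 averaged 184 ± 92.6 CPM per kb, Gdf10 39.4 ± 10.1, Bmp2 15.2 ± 1.61, Bmp5 10.6 ± 2.73, Bmp6 3.42 ± 2.31 and Bmp7 2.62 ± 1.49 (SD, n = 3). Bmp2 overlapped with Bmp5 there, and Bmp6 with Bmp7. The order in sham libraries was the same, with Bmp4 at 51.7 ± 3.42, Gdf10 at 36.2 ± 10.3, Bmp2 at 21.6 ± 1.99, Bmp5 at 13.0 ± 1.72, Bmp6 at 10.2 ± 0.161 and Bmp7 at 8.60 ± 0.202 CPM per kb (SD, n = 2), and no neighbours in it overlapped.

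Of the 6 ligands' summed CPM per kb, Bmp4 took 33.0%, 30.4% and 31.9% in knockdown libraries 1 to 3, and 78.0%, 53.7% and 76.6% in scrambled libraries 1 to 3. In sham libraries 1 and 2 it took 40.4% and 33.2%. All scrambled libraries thus had a larger Bmp4 share than any other library, library 2 included. Gdf10 took 32.3%, 34.1% and 30.9% in knockdown, 13.7%, 23.3% and 12.2% in scrambled and 21.5% and 29.3% in sham libraries. Bmp4 reads outnumbered Bmp7 reads 4.60, 3.05 and 3.70 to 1 in knockdown libraries 1 to 3, 87.2, 12.1 and 58.6 to 1 in scrambled libraries 1 to 3, and 3.48 and 3.28 to 1 in sham libraries 1 and 2. This ratio is free of the scaling between libraries, and its scrambled range did not overlap with the others.

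**Figure D3:**
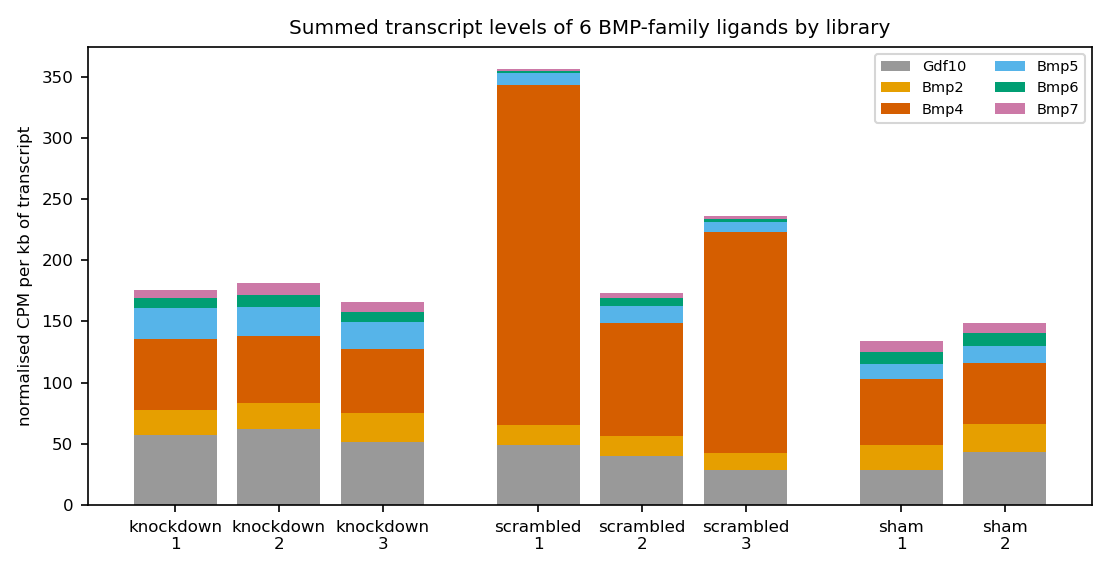
Summed transcript levels of the 6 ligands in each library, as normalised CPM per kb of transcript, stacked by ligand, with knockdown, scrambled and sham libraries from left to right. The sums lay between 166 and 181 in knockdown, between 173 and 356 in scrambled and between 134 and 149 in sham libraries, and Bmp4 made up most of each scrambled bar.

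In sorted bulk cells, fewer cells of a type and less RNA per cell cannot be told apart. Endothelial cells, which were gated out by CD31, also make BMP ligands. The 7 endothelial markers examined, all 7 tested, summed to 133, 141 and 165 CPM in knockdown libraries 1 to 3, to 250, 105 and 166 in scrambled libraries 1 to 3, and to 139 and 101 in sham libraries 1 and 2. The sum was highest in scrambled library 1, and scrambled library 2 lay within the sham range. Pericyte and smooth muscle markers summed to between 205 and 273 CPM in knockdown, 137 and 225 in scrambled and 171 and 203 in sham libraries, and muscle fibre markers to between 37.6 and 47 CPM in knockdown, 55.2 and 194 in scrambled and 24.9 and 48.9 in sham libraries. Genes within a list differed in direction. Pecam1, which encodes CD31, had 35.0, 46.4 and 49.0 CPM in knockdown, 73.0, 37.7 and 56.2 CPM in scrambled and 29.9 and 20.2 CPM in sham libraries. Of the pericyte markers, Rgs5 averaged 33.3 CPM in scrambled and 13.5 in sham libraries, Abcc9 53.0 and 15.3, Notch3 27.4 and 14.4, and Kcnj8 16.4 and 3.71, the last with overlapping values. Cspg4, another pericyte marker, lay the other way. It had 63.7, 50.4 and 76.9 CPM in knockdown, 3.45, 35.7 and 6.86 CPM in scrambled and 92.3 and 103 CPM in sham libraries. The part of other cells in these results was not tested.

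Chrdl1, which encodes the antagonist chordin-like 1, stood higher in both tumour groups than in sham. It had 76.7, 91.2 and 65.4 CPM in knockdown libraries 1 to 3, 128, 76.8 and 56.4 CPM in scrambled libraries 1 to 3, and 19.7 and 39.2 CPM in sham libraries 1 and 2. Every tumour library lay above both sham libraries, and the tumour groups overlapped. The fold was 2.96 for scrambled against sham (log2 1.57 ± 0.40, edgeR adjusted p = 0.0721, from 0.00271 to 0.418 over alternatives). It was called when scrambled library 2 was left out (log2 1.66, edgeR adjusted p = 0.0233), as were 51.0% of all genes. It was 2.63 for knockdown against sham (log2 1.40 ± 0.40, unadjusted p = 0.00632, edgeR adjusted p = 1, from 0.132 to 1). Knockdown against scrambled gave log2 -0.17 ± 0.33, which was 0.22 without scrambled library 1, the highest of its group, and -0.27 without scrambled library 2. Chrdl1 lies on chromosome X from 143285674 to 143394262 on the - strand.

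Nearest to Chrdl1 in pattern were C2, a complement component (root mean square difference 0.21 log2 units), Itgb4 (0.28), Tnfaip6 (0.34), Nfkbiz (0.35) and Icam1 (0.35), with a median of 0.83 over the 9975 candidates. C2 had 136, 141 and 118 CPM in knockdown, 267, 196 and 120 CPM in scrambled and 36.1 and 66.2 CPM in sham libraries.

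Grem1, which encodes the antagonist gremlin 1, was barely detected. It had 2, 7 and 0 reads in knockdown libraries 1 to 3, 14, 14 and 9 reads in scrambled libraries 1 to 3, and 0 and 2 reads in sham libraries 1 and 2. Since it passed the filter through the scrambled libraries, that group had to be high, and no fold is given. For libraries with 0 reads, counting error leaves room for up to 3. Grem1 lies on chromosome 2 from 113746164 to 113758646 on the - strand.

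Bmpr1a, the type I receptor, was even. It had 128, 117 and 114 CPM in knockdown libraries 1 to 3, 144, 116 and 120 CPM in scrambled libraries 1 to 3, and 103 and 118 CPM in sham libraries 1 and 2. The groups overlapped in all 3 comparisons, and the log2 changes were 0.20 ± 0.17 for scrambled against sham, -0.08 ± 0.15 for knockdown against scrambled and 0.11 ± 0.17 for knockdown against sham (edgeR adjusted p = 0.434, 0.708 and 1, from 0.154 to 1 over alternatives). The first 2 of these were 0.26 and -0.15 when scrambled library 2 was left out. Bmpr1a lies on chromosome 14 from 34410734 to 34503341 on the - strand, and 290 of its 6351 exonic bases are shared with Gm17110.

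Per kb, Chrdl1 averaged 19.0 ± 3.16 CPM in knockdown, 21.3 ± 9.07 in scrambled and 7.19 ± 3.38 in sham libraries, and Bmpr1a 20.1 ± 1.28 in knockdown, 21.3 ± 2.55 in scrambled and 18.5 ± 1.86 in sham libraries (SD, n = 3, 3 and 2). In sham libraries Chrdl1 overlapped with Bmp7, the lowest ligand. In knockdown libraries it overlapped with Bmp2, Bmp5 and Bmpr1a.

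As the study turns on miR-27a-3p, its mature sequence is shown with the seed (bases 2 to 8) in capitals, beside the sites in the 3′ UTRs of the members that pair with the whole seed. The miRNA lies at chr8:84208727-84208747 on the + strand (RefSeq, GRCm38.p6), and the capitals in the sites mark the 7 bases that pair with the seed.
mmu-miR-27a-3p: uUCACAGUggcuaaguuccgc
Bmp2 site: ataattaggaaaACTGTGActa
Grem1 site: agtccttcggttACTGTGAttt

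A site was found in 2 of the 9 members, 1 in Bmp2 (bases 753 to 759 of a 3′ UTR of 1170) and 1 in Grem1 (bases 2812 to 2818 of 3436). Among 19075 genes of the table with a 3′ UTR in GENCODE M21, 16.2% held the ACTGTGA letters. There were 0.10 matches per kb of 3′ UTR in the members and 0.13 in all genes, so the members' density was not above that of all genes. Neither site is followed by an A. The 3′ UTRs of Gdf10, Bmp4, Bmp5, Bmp6, Bmp7, Chrdl1 and Bmpr1a held none. The inhibitor was in the tumour cells, and mature miRNA in the progenitors was not measured in these libraries of polyadenylated RNA.

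The rest of the pathway was read from 6 lists with 75 gene symbols, of which 74 were in the table and 62 were tested. No listed gene was called by edgeR in any comparison. For scrambled against sham, 20 had an unadjusted p under 0.05 and were higher, and 6 were lower, where 16.7% and 12.5% of all genes were, with a median log2 change of 0.06 against 0.00 for all genes. For knockdown against scrambled 10 were higher and 14 lower (13.9% and 18.5% of all genes), with a median of -0.06 against 0.01. For knockdown against sham 1 was higher and 0 were lower (1.67% and 0.696% of all genes), with a median of 0.06 against 0.00. Without scrambled library 2, of 61 listed genes tested edgeR called 22 higher and 16 lower in scrambled than in sham, 17 higher and 22 lower in knockdown than in scrambled, and 0 between knockdown and sham, where 51.0%, 54.0% and 0.236% of all genes were called.

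Of 19 listed target genes of BMP and SMAD signalling 16 were tested and none was called by edgeR. At an unadjusted p under 0.05, 9 of them were higher and 1 lower in scrambled than in sham (16.7% and 12.5% of all genes). Likewise 9 lay higher than sham with no overlap against 1 lower (20.2% and 20.8% of all genes), with a median log2 change of 1.12 against 0.00 for all genes. With scrambled library 2 left out the median was 1.41 against -0.01, and edgeR called 10 higher and 1 lower. Of all 13547 genes tested in that fit, 3441 were called higher and 3467 lower. Id3, a helix-loop-helix inhibitor of differentiation, had 850, 288 and 736 CPM in scrambled libraries 1 to 3, against 112 and 176 CPM in sham libraries 1 and 2 (log2 2.11 ± 0.43, edgeR adjusted p = 0.052). It was lowest in scrambled library 2 of its group and above sham there too. Without that library edgeR called it (log2 2.46, adjusted p = 3.71e-06). Msx1, a homeobox gene induced by BMPs in the embryo, went the other way, with 44.4, 53.7 and 35.8 CPM in scrambled and 76.5 and 81.6 CPM in sham libraries (log2 -0.82 ± 0.19, edgeR adjusted p = 0.0602).

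For knockdown against scrambled, 5 of the 16 targets were lower without overlap and 1 was higher (16.7% and 17.5% of all genes), with a median log2 change of -0.59 against 0.01 for all genes. Leaving out scrambled library 2, the median was -0.86 against 0.03, and edgeR called 9 lower and 1 higher. Of all 13547 genes tested in that fit, 3608 were called lower and 3705 higher. Id3 had 236, 201 and 217 CPM in knockdown libraries, below each scrambled library (log2 -1.52 ± 0.37, edgeR adjusted p = 0.0728). Smad7, an inhibitory SMAD that is itself a target, had 20.4, 28.7 and 21.4 CPM in knockdown libraries, against 71.0, 37.3 and 67.4 CPM in scrambled libraries (log2 -1.32 ± 0.27, edgeR adjusted p = 0.0656). Over the sham mean, the median target stood at 0.21, 0.42 and 0.21 log2 units in knockdown libraries 1 to 3, at 1.40, 0.36 and 1.10 in scrambled libraries 1 to 3, and at -0.24 and 0.24 in sham libraries 1 and 2. Knockdown libraries 1 and 3 thus lay within the sham range, and scrambled library 2 within the knockdown range. For knockdown against sham Id2 (log2 0.96 ± 0.34) and Atoh8 (0.73 ± 0.36) had the smallest p of the list, with no overlap between the groups and an edgeR adjusted p of 1.

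**Figure D4:**
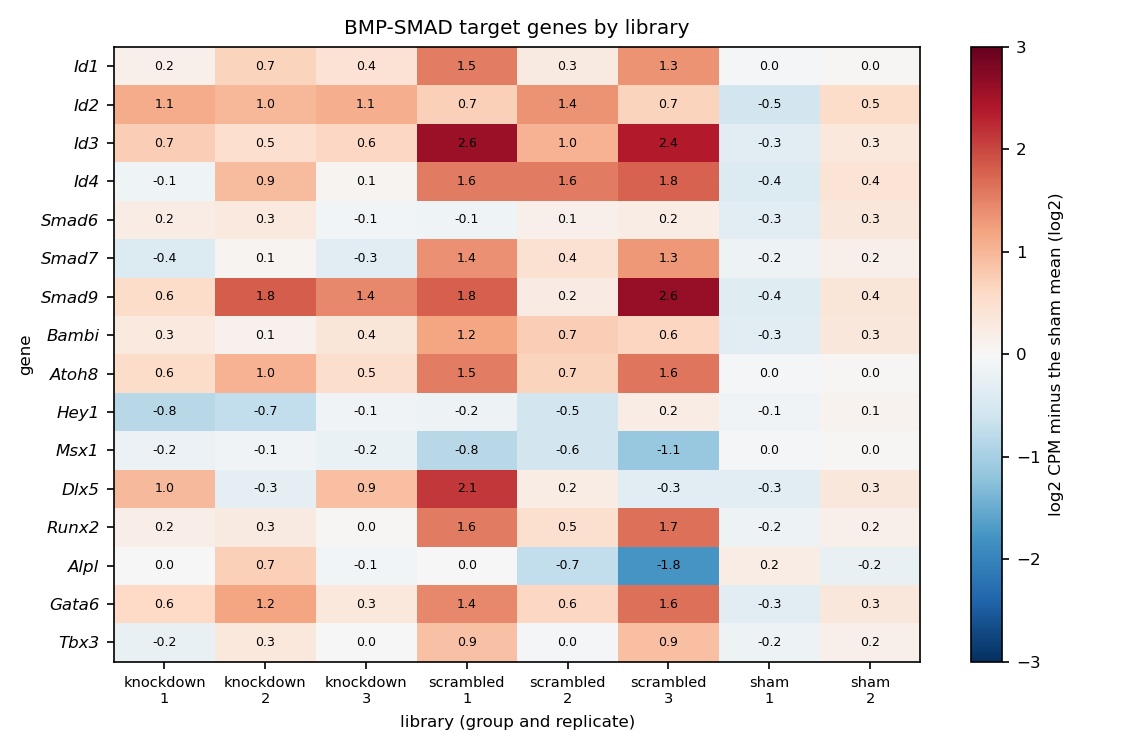
Log2 CPM minus the sham mean of 16 BMP-SMAD target genes (rows) in each library (columns, knockdown, scrambled and sham from left to right), with the value in each cell. Id3 stood at 2.6, 1.0 and 2.4 log2 units in scrambled libraries 1 to 3, and between 0.5 and 0.7 in knockdown libraries.

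Of the 15 other antagonists and extracellular modulators tested, 3 were higher and 2 lower in scrambled than in sham at an unadjusted p under 0.05 (16.7% and 12.5% of all genes). For knockdown against scrambled 5 were higher and 2 lower (13.9% and 18.5% of all genes). Their fitted changes went both ways, with 6 above and 9 below 0 for scrambled against sham, and 2 genes are described here. Fstl1, a secreted follistatin-like glycoprotein, had 754, 2072 and 752 CPM in scrambled and 3840 and 3057 CPM in sham libraries (log2 -1.53 ± 0.42, edgeR adjusted p = 0.0807). Knockdown libraries had 2604, 3006 and 2756 CPM of Fstl1 (log2 1.23 ± 0.39 against scrambled, edgeR adjusted p = 0.0883). Smoc1, a matricellular BMP antagonist, was highest in knockdown libraries, with 7.13, 6.47 and 5.47 CPM, against 3.02, 3.04 and 1.64 CPM in scrambled libraries (log2 1.27 ± 0.32, edgeR adjusted p = 0.0728).

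Of the 10 other BMP and GDF ligands listed, 3 were tested, and Gdf6, a ligand of joint and tendon development, was the nearest to a call. It had 11.2, 7.18 and 8.88 CPM in scrambled libraries, against 3.61 and 3.63 CPM in sham libraries (log2 1.33 ± 0.36, edgeR adjusted p = 0.0796). It had 5.13, 3.40 and 5.77 CPM in knockdown libraries (log2 -0.92 ± 0.30 against scrambled, edgeR adjusted p = 0.0907). Bmp8a lay between 1.35 and 2.31 CPM and Bmp3 between 4.85 and 22.5 CPM over the 8 libraries. Of the tolloid proteases and their enhancers, Bmp1, which cleaves chordin and procollagens and is no BMP ligand in spite of its name, had 430, 732 and 445 CPM in scrambled and 1201 and 965 CPM in sham libraries (log2 -1.02 ± 0.26, edgeR adjusted p = 0.072). In knockdown libraries it had 842, 947 and 874 CPM (log2 0.73 ± 0.23 against scrambled, edgeR adjusted p = 0.0905).

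Of 13 other receptors and co-receptors tested, 4 were higher and 1 lower in scrambled than in sham libraries at an unadjusted p under 0.05 (16.7% and 12.5% of all genes), and 1 was higher and 4 lower in knockdown than in scrambled libraries (13.9% and 18.5%). Tgfbr3, a co-receptor that binds BMPs and TGF-beta, had 2093, 914 and 2167 CPM in scrambled and 556 and 812 CPM in sham libraries (log2 1.33 ± 0.37, edgeR adjusted p = 0.082). Knockdown libraries had 641, 729 and 678 CPM (log2 -1.34 ± 0.32 against scrambled, edgeR adjusted p = 0.0728). Neo1, which encodes neogenin, a receptor of the repulsive guidance molecules that act as BMP co-receptors, went the other way. It had 69.2, 93.0 and 73.2 CPM in scrambled and 122 and 172 CPM in sham libraries (log2 -0.90 ± 0.20, edgeR adjusted p = 0.0576). With 155, 161 and 152 CPM in knockdown libraries it stood above every scrambled library (log2 0.99 ± 0.18, edgeR adjusted p = 0.061). Among the SMADs, Smad1 had 74.2, 35.5 and 46.0 CPM in scrambled and 25.4 and 28.5 CPM in sham libraries (log2 0.95 ± 0.31, edgeR adjusted p = 0.106).

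Not all genes named from these lists differed more without scrambled library 2. For scrambled against sham, Id2 and Bmp8a stood at log2 0.85 and -0.37 over all libraries. They stood at 0.59 and -0.27 without that library, neither called by edgeR. The genes that follow differed more. Without scrambled library 2 the log2 change for scrambled against sham was -0.97 for Msx1, 1.34 for Smad7, -2.19 for Fstl1, 1.5 for Gdf6, -1.30 for Bmp1, 1.64 for Tgfbr3, -1.04 for Neo1 and 1.17 for Smad1, each called by edgeR (adjusted p between 3.18e-06 for Fstl1 and 0.00268 for Gdf6). For knockdown against scrambled it was -1.87 for Id3, -1.57 for Smad7, 1.88 for Fstl1, 1.4 for Smoc1, -1.08 for Gdf6, 1.01 for Bmp1, -1.65 for Tgfbr3 and 1.12 for Neo1, each called by edgeR (adjusted p between 5.36e-06 for Fstl1 and 0.00542 for Smoc1). That fit called 51.0% of all genes for scrambled against sham and 54.0% for knockdown against scrambled.

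**Figure D5:**
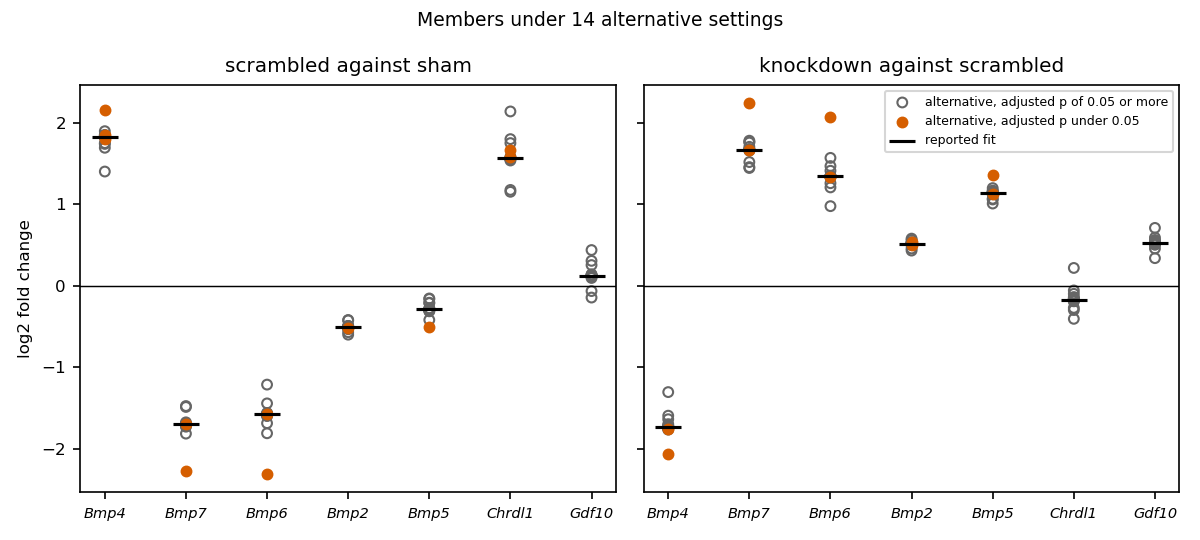
Log2 fold changes (vertical axis) of 7 BMP genes under 14 alternative settings, for scrambled against sham on the left and knockdown against scrambled on the right. Filled points are alternatives with an adjusted p under 0.05, open points the others, and black dashes the reported fit. The directions of Bmp4, Bmp7, Bmp6, Bmp2 and Bmp5 were the same in all settings, with Bmp4 between 1.40 and 2.16 on the left and between -2.06 and -1.30 on the right.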

How the data were processed

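The values analysed are raw read counts per gene that the authors deposited, without normalization. The submitters' processing notes name the build mm10 and, without roles, STAR and Bowtie, bcl2fastq (version 2.20), R (4.2.1) and DESeq2 (1.36.0). Which tool, annotation and strand were used for counting is not given in the sources used here. The table had 24419 rows, 6786 of them at 0 throughout. Paired reads had 59 bases per end, from a stranded mRNA kit, without molecular identifiers, so counts cover reads and not molecules.

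Counts were analysed in R 4.3.3 with edgeR 4.0.16. Genes passing filterByExpr (minimum count 10, minimum total 15) were scaled by TMM, and the robust quasi-likelihood fit used 3 group means over all 8 libraries, so each p also draws on the spread of the group not compared. Tests were two-sided, adjusted by Benjamini and Hochberg over 13646 genes, with a threshold of 0.05. SEs of log2 changes are the absolute change over the square root of F. DESeq2 1.42.0 and limma 3.58.1 (voom) were alternatives, with the other scaling, no low-count filter, only the libraries compared, a replicate block, and each library left out. The fit was checked on simulated data. The labels call the libraries biological replicates.

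Gene positions, transcript lengths and 3′ UTRs came from GENCODE M21 (GRCm38), taking the longest coding transcript. The members and lists were chosen with earlier results of these data known. The genes named from the lists were those called or, per list and comparison, the 2 with the smallest p, of which part are printed and 1 is not reported here, and Txndc5, Cd34, Pecam1 and Cspg4 were named after their values were seen. Likeness used log2 CPM (prior count 2) of named genes with a mean of at least 5 CPM. No set test was run.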

Additional observations from a re-analysis of the deposited data

How the results depend on the processing

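Of 359 log2 changes of members under 14 alternatives, 325 kept their direction and side of the threshold, 23 became called and 11 changed sign. No member was called in the reported fit, so no alternative could remove a call. For scrambled against sham, the members called were 1 higher with no filter on low counts (Bmp4), 2 higher and 2 lower with DESeq2, and from 0 to 2 higher and 0 to 4 lower when a library was left out. For knockdown against scrambled they were 4 higher and 1 lower with DESeq2, and from 0 to 4 higher and 0 to 1 lower when a library was left out. For knockdown against sham 1 was higher (Bmp5) when only the libraries compared were fitted, and from 0 to 1 when a library was left out. All the calls made when a library was left out came without scrambled library 2, and the cause was not tested. Grem1 was not tested there. Leaving out a sham library leaves 1, which is then assumed to vary like the other groups.

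Apart from Grem1, the signs that changed were those of log2 differences of at most 0.17 in size. With a library left out, knockdown against scrambled ran from -0.15 to 0.0176 for Bmpr1a and from -0.41 to 0.22 for Chrdl1. Likewise, knockdown against sham ran from -0.0834 to 0.11 for Bmp2 and from -0.19 to 0.0788 for Bmp7, and scrambled against sham from -0.14 to 0.44 for Gdf10. The fitted value of Grem1 for knockdown against sham, which rests on at most 7 reads per library, ran from -0.29 to 4.66 and is no measure of a fold. With no low-count filter Bmp2 gave -0.0042 and with the replicate block Bmp7 gave 0.0562 for knockdown against sham.

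The replicate block called 0 members in each comparison, and of all genes 16 for scrambled against sham and 0 in both comparisons of the knockdown group, against 215, 7 and 1 without it. With 2 or 3 libraries per group, whether the numbers pair the samples cannot be settled. Deviations of same-numbered libraries correlated at -0.064 to 0.172, and those of differently numbered scrambled and knockdown libraries at -0.149 to 0.068. Of the 6 scrambled and knockdown libraries, 3 correlated best with their own number.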
